A study of Saccharomyces cerevisiae S288C with 32 samples.

Results

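The 33 genes described here encode aminoacyl-tRNA synthetases of budding yeast, out of 6084 genes measured. They were chosen by name from the RefSeq R64 annotation: 19 encode cytosolic enzymes and 14 encode mitochondrial enzymes. Messenger RNA was sequenced from 32 libraries of Saccharomyces cerevisiae strain S288C, in 8 groups of 4. Cultures in YPD medium at room temperature, diluted to an OD600 of 0.1 and grown to 0.4, received L-azetidine-2-carboxylic acid (AZC, an analogue of proline) at 2 mg/mL or the same volume of sterile water as vehicle, for 45 minutes. Flowcell 1 held the zuo1 mutant with AZC, zuo1 with vehicle, wild type with AZC and wild type with vehicle. Flowcell 2 held the not5 mutant with AZC, not5 with vehicle, wild type with AZC and wild type with vehicle. The labels give the mutants by gene name, with no allele or marker. A group's 4 libraries are named biological replicates, but separate cultures are not mentioned, so every p-value measures the spread between these libraries, which may be technical.

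An aminoacyl-tRNA synthetase joins one amino acid to its tRNAs, and the ribosome uses the charged tRNAs to build protein. Yeast keeps a nuclear-encoded set for the cytosol and another for mitochondria, and a few genes make both forms from alternative starts. Prolyl-tRNA synthetase is the enzyme through which AZC enters protein, because it accepts the analogue in place of proline. ZUO1 makes a J-domain chaperone protein that works at the ribosome. NOT5 encodes a component of Ccr4-Not, the complex that shortens poly(A) tails and takes part in mRNA decay.

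Libraries held 22152108 to 31485394 counts on flowcell 1 and 58229383 to 97010130 on flowcell 2. All 33 genes passed the filter on low counts on both flowcells. The lowest count of any of them in any library was 309, for DIA4. The ZUO1 count was 0 in 7 of the 8 zuo1 libraries and 3 in zuo1 with AZC, replicate 1, against at least 14757 in wild type on that flowcell. The NOT5 count was 0 in all 8 not5 libraries, against at least 10967 in wild type on that flowcell. LEU2 was at 0 outside not5 and had 1378 to 2311 counts in the not5 libraries, so presence of LEU2 mRNA and loss of NOT5 cannot be told apart. Ribosomal RNA records took 3.95 to 14.9% of counts in not5 libraries and 0.626 to 3.95% in wild type on flowcell 2. The RNA was selected by its poly(A) tail and every level is a share of its library's mRNA, so a change in a gene's mRNA, in its tail length and in the amount of other mRNA cannot be told apart.

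Per kilobase of coding sequence, the cytosolic enzymes' mRNAs were far above the mitochondrial ones. In wild type with vehicle on flowcell 1 the cytosolic genes had a median of 458 CPM per kb (library-scaled counts, CPM, per kilobase) and a range of 308 to 852. The mitochondrial genes had a median of 17.3 CPM per kb and a range of 11.1 to 30.3, so the 2 sets did not overlap. KRS1, the lysyl enzyme, was highest among cytosolic genes at 852 CPM per kb, followed by THS1 (threonyl) at 791 and SES1 (seryl) at 776. ALA1 (alanyl) was the lowest at 308, and FRS2, the alpha subunit of the phenylalanyl enzyme, lay next to it at 318. Neighbours in this order mostly lay within their spread: YHR020W, the cytosolic prolyl enzyme, stood at 366 ± 13.4 CPM per kb, WRS1 (tryptophanyl) at 366 ± 23.7 and VAS1 (valyl) at 366 ± 23.9 (SD, n = 4). Among mitochondrial genes MSK1 (lysyl) was highest at 30.3 ± 3.69 CPM per kb and DIA4 (seryl) lowest at 11.1 ± 0.916 (SD, n = 4). AIM10, the mitochondrial prolyl enzyme, stood at 16.1 ± 0.857 CPM per kb (SD, n = 4).

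The region upstream of YHR020W is printed because this gene makes the cytosolic enzyme for the amino acid that AZC resembles. YHR020W lies at chrVIII:143996-146062 on the plus strand of R64, a single coding exon, as are all 33 genes, and 0 of the 33 overlap another annotated gene. Its 300 upstream bases, counted back from the start codon, are chrVIII:143696-143995, from RefSeq R64. Capitals mark 2 motifs searched on both strands: AAAATTT, the core of the RRPE element (found upstream of ribosome biogenesis genes), and TGACTCA, the site of the activator Gcn4, here read as TGAGTCA.
YHR020W: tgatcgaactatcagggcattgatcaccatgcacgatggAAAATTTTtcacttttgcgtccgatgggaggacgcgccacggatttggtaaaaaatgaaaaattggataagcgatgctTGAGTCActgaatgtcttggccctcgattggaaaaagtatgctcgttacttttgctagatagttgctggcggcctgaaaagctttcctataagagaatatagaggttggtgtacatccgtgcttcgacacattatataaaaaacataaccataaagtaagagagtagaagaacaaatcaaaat
YHR020W and DED81, the asparaginyl gene, are divergent neighbours that share the 437 bases of chrVIII:143559-143995. Their matches to both motifs are therefore the same sites read from opposite sides.

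The RRPE core separated the 2 sets of promoters. AAAATTT was in the 300 bases upstream of 16 of the 19 cytosolic genes (84.2%), of 1 of the 14 mitochondrial genes (7.14%), MSM1, and of 24.5% of the 5960 protein-coding genes with such a window. The cytosolic genes without it were ALA1, DPS1 (aspartyl) and KRS1. A gene counts once however many matches it has, and AAAATTTT holds overlapping matches on both strands. Windows of 41 bases with the core in capitals, at the match nearest the start codon, are shown for the glutaminyl (GLN4), threonyl (THS1) and tyrosyl (TYS1) genes of the cytosol and for MSM1, the mitochondrial methionyl gene, so that the match and its flanks can be compared.
GLN4: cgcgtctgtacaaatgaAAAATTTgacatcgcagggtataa
THS1: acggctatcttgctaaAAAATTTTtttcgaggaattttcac
TYS1: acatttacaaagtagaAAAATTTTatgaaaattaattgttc
MSM1: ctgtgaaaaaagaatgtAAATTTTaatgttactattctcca
The windows lie at chrXV:649174-649214 (plus strand), chrIX:212331-212371 (plus strand), chrVII:867596-867636 (minus strand) and chrVII:842593-842633 (minus strand) of R64, in the order printed. The PAC core GATGAG was upstream of 3 cytosolic genes (15.8%), 1 mitochondrial gene (7.14%) and 18.9% of all genes. TGACTCA was upstream of YHR020W and DED81 (10.5% of the cytosolic genes, at the shared site), of 0 of the 14 mitochondrial genes and of 2.63% of all genes. The stress response element CCCCT was upstream of 1 cytosolic gene (5.26%), 4 mitochondrial genes (28.6%) and 22.2% of all genes. AIM10 held the stress response element, shown in capitals, at chrV:330366-330406 (plus strand).
AIM10: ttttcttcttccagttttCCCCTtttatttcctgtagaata
Paired heat shock units, GAANNTTC, were upstream of 2 cytosolic genes (10.5%), 3 mitochondrial genes (21.4%) and 11.6% of all genes. These matches describe letters in a window and do not show that a factor binds there.

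**Figure D1:**
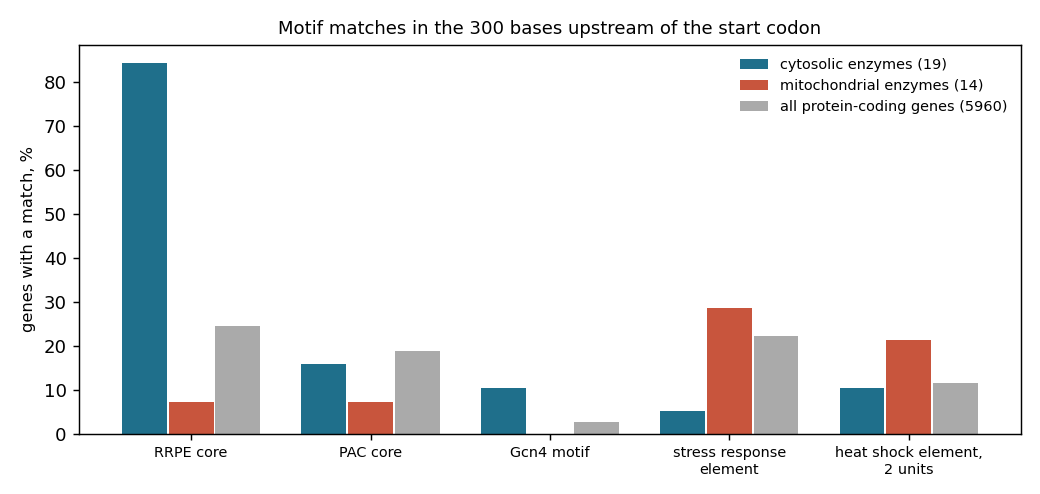
Share of genes with each motif in the 300 bases upstream of the start codon, in percent, for the 19 cytosolic enzymes (blue), the 14 mitochondrial enzymes (red) and 5960 protein-coding genes (grey). The RRPE core stands at 84.2% of cytosolic genes, 7.14% of mitochondrial genes and 24.5% of all genes, the widest gap of the 5 motifs.

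In wild type with AZC, mRNAs of cytosolic enzymes were lower and those of 8 mitochondrial enzymes higher than with vehicle, on both flowcells. On flowcell 1, 19 of 19 cytosolic genes fell and 0 rose, and 8 of 14 mitochondrial genes rose and 0 fell (edgeR quasi-likelihood test, Benjamini-Hochberg adjusted p under 0.05 over all tested genes). Across all 5782 tested genes 64.6% were called, 33.3% higher and 31.3% lower. On flowcell 2, 18 of 19 cytosolic genes fell and the same 8 mitochondrial genes rose, where 65.3% of 5849 genes were called, 30.2% higher and 35.2% lower. GUS1, the glutamyl enzyme, was the cytosolic gene without a call there, at a log2 fold change of -0.09 ± 0.06 (SE; edgeR adjusted p = 0.245). The median log2 fold change was -0.64 over cytosolic genes, 0.41 over mitochondrial genes and 0.02 over all genes on flowcell 1, and -0.45, 0.36 and -0.03 on flowcell 2.

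Summed over the 19 cytosolic genes, the level was 12231 ± 1216 CPM with AZC and 18875 ± 937 CPM with vehicle in wild type on flowcell 1 (SD, n = 4 each). On flowcell 2 the cytosolic sum was 14103 ± 526 CPM with AZC and 18572 ± 1057 CPM with vehicle. The AZC sum was thus 64.8% of the vehicle sum on flowcell 1 and 75.9% on flowcell 2. Over the 14 mitochondrial genes the sum was 603 ± 38.9 CPM with AZC and 457 ± 25.5 CPM with vehicle on flowcell 1, and 661 ± 27.2 CPM and 524 ± 19.3 CPM on flowcell 2, or 132% and 126% of vehicle. No AZC library overlapped a vehicle library in either sum on either flowcell. The cytosolic sum was 20.3 times the mitochondrial sum with AZC and 41.4 times with vehicle on flowcell 1, and 21.4 and 35.5 times on flowcell 2.

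**Figure D2:**
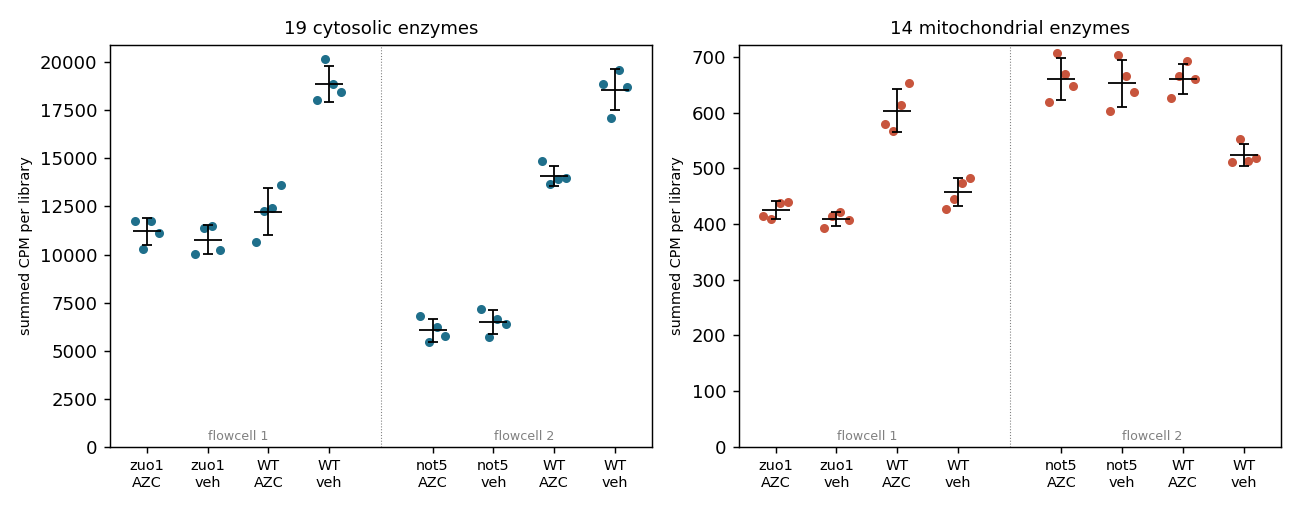
Summed CPM of the 19 cytosolic genes (left) and the 14 mitochondrial genes (right) in each of the 32 libraries, with mean and SD of 4 libraries per group and flowcells separated by a dotted line. Wild type with vehicle stands alone at the top of the cytosolic panel, and the not5 groups stand at its foot.

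The prolyl pair moved in opposite directions. YHR020W had 371, 423, 467 and 468 CPM in wild type with AZC on flowcell 1, against 737, 783, 776 and 728 CPM with vehicle. On flowcell 2 it had 564, 494, 501 and 505 CPM with AZC, against 757, 667, 797 and 732 CPM with vehicle. Every AZC library lay below every vehicle library on both flowcells. The log2 fold change was -0.81 ± 0.09 on flowcell 1 (SE; edgeR adjusted p = 2.05e-07) and -0.52 ± 0.14 on flowcell 2 (edgeR adjusted p = 0.00362). AIM10, at chrV:330576-332306 on the plus strand of R64, had 41.1, 37.9, 40.8 and 42.4 CPM in wild type with AZC on flowcell 1, against 27.2, 26.6, 29.96 and 27.4 CPM with vehicle. On flowcell 2, AIM10 had 42.1, 43.1, 46.2 and 45.97 CPM with AZC, against 30.8, 32.98, 33.6 and 32.2 CPM with vehicle. All AZC libraries lay above all vehicle libraries of their flowcell. The AIM10 log2 fold change was 0.54 ± 0.08 on flowcell 1 (edgeR adjusted p = 1.83e-05) and 0.45 ± 0.06 on flowcell 2 (edgeR adjusted p = 3.31e-06). Per kilobase, YHR020W stood at 8.94 ± 0.930 times AIM10 with AZC and 22.8 ± 1.29 times with vehicle on flowcell 1, and at 9.77 ± 0.999 and 19.1 ± 1.58 times on flowcell 2 (SD, n = 4).

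**Figure D3:**
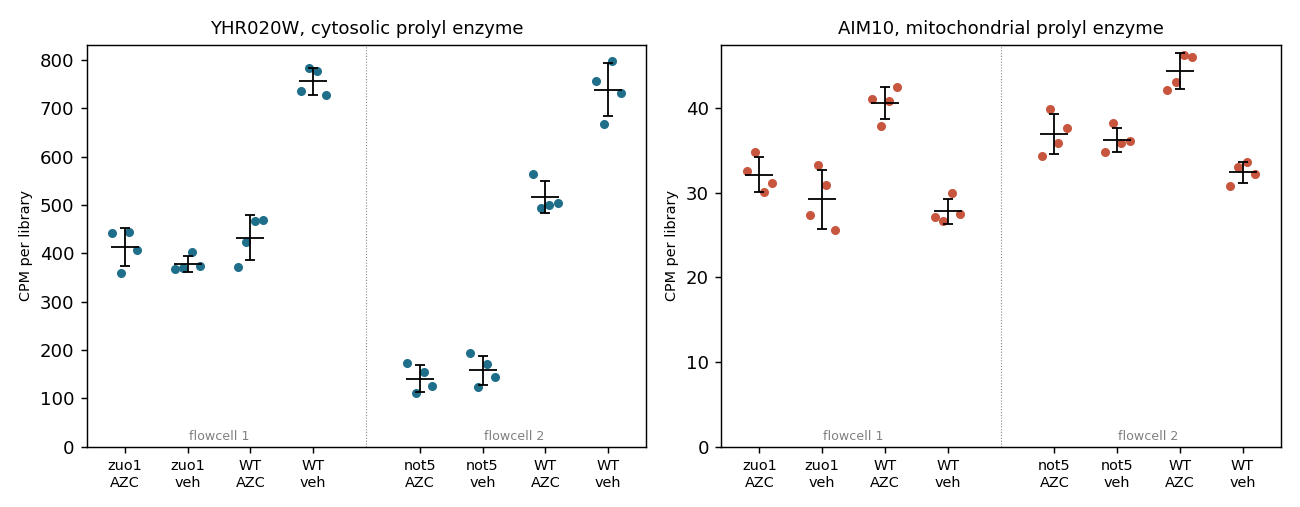
CPM of YHR020W (left) and AIM10 (right) in each of the 32 libraries, with mean and SD of 4 libraries per group and flowcells separated by a dotted line. YHR020W is lower with AZC in wild type and lowest in not5, at 112 to 193 CPM, while AIM10 is higher with AZC in wild type and its 8 not5 libraries lie between 34.4 and 39.9 CPM.

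The largest cytosolic falls were in the glutaminyl, asparaginyl and alanyl genes, in that order on both flowcells. GLN4, whose upstream window is printed above, had 314, 360.4, 349 and 418 CPM in wild type with AZC on flowcell 1, against 770.3, 867, 793 and 760.0 CPM with vehicle. On flowcell 2, GLN4 had 468, 467, 405 and 451 CPM with AZC, against 785, 733, 793 and 783 CPM with vehicle. The groups did not overlap on either flowcell. The GLN4 log2 fold change was -1.15 ± 0.09 on flowcell 1 (edgeR adjusted p = 2.46e-09) and -0.79 ± 0.07 on flowcell 2 (edgeR adjusted p = 1.24e-07). DED81 had log2 fold changes of -1.09 ± 0.11 and -0.64 ± 0.09 on flowcells 1 and 2 (edgeR adjusted p = 5.85e-08 and 2.25e-05). ALA1 had log2 fold changes of -0.96 ± 0.11 and -0.60 ± 0.09 (edgeR adjusted p = 2.83e-07 and 1.77e-05). KRS1, the most abundant per kilobase, had 925, 1043, 1064 and 1122 CPM with AZC on flowcell 1, against 1466, 1609, 1477 and 1504 CPM with vehicle. KRS1 on flowcell 2 had 1272, 1139, 1171 and 1125 CPM with AZC, against 1480.3, 1344, 1573 and 1509 CPM with vehicle. Its AZC libraries were all lower, at -0.54 ± 0.08 and -0.33 ± 0.06 (edgeR adjusted p = 1.14e-05 and 0.000359). At the other end, GUS1 on flowcell 1 was at -0.24 ± 0.09 (edgeR adjusted p = 0.0326), a call lost in 5 of 16 fits that each left out a library. ILS1 (isoleucyl) was at -0.27 ± 0.10 and -0.19 ± 0.08 and FRS2 at -0.39 ± 0.11 and -0.18 ± 0.07, and on flowcell 2 their calls were lost in 11 and 10 of 16 such fits. The 3 cytosolic genes without an RRPE core, ALA1, KRS1 and DPS1, had log2 fold changes of -0.96, -0.54 and -0.44 on flowcell 1, spread across the cytosolic range.

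Among mitochondrial genes, the 8 that rose were AIM10, MSD1 (aspartyl), MSF1 (phenylalanyl), MSK1 (lysyl), MSR1 (arginyl), MST1 (threonyl), MSY1 (tyrosyl) and SLM5 (asparaginyl). SLM5 had 36.9, 28.7, 28.8 and 37.6 CPM with AZC on flowcell 1, against 16.02, 18.7, 16.7 and 18.2 CPM with vehicle. On flowcell 2, SLM5 had 30.1, 31.1, 33.4 and 32.8 CPM with AZC, against 20.7, 21.00, 23.3 and 20.02 CPM with vehicle. Its AZC libraries were all above its vehicle libraries, with log2 fold changes of 0.92 ± 0.11 and 0.58 ± 0.07 (edgeR adjusted p = 6.43e-07 and 3.09e-06). MSF1 had 36.97, 38.7, 40.4 and 41.1 CPM with AZC on flowcell 1, against 18.4, 20.7, 21.7 and 24.1 CPM with vehicle. On flowcell 2, MSF1 had 38.9, 40.9, 44.4 and 40.8 CPM with AZC, against 23.2, 24.01, 24.6 and 25.3 CPM with vehicle. MSF1 did not overlap between AZC and vehicle, with log2 fold changes of 0.89 ± 0.09 and 0.77 ± 0.09 (edgeR adjusted p = 5.3e-08 and 3.44e-06). MST1 followed, at 0.81 ± 0.11 and 0.58 ± 0.07 (edgeR adjusted p = 3.17e-06 and 2.71e-06).

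MSK1 and MSY1 rose less. MSK1 had 75.1, 74.2, 79.1 and 88.1 CPM with AZC on flowcell 1, against 47.7, 47.1, 53.98 and 60.7 CPM with vehicle. On flowcell 2, MSK1 had 84.1, 89.3, 94.96 and 93.3 CPM with AZC, against 60.7, 63.7, 63.9 and 58.7 CPM with vehicle. The log2 fold changes of MSK1 were 0.60 ± 0.09 and 0.55 ± 0.07 (edgeR adjusted p = 1.76e-05 and 7.12e-06), again without overlap. MSY1 had 29.8, 30.5, 31.7 and 29.1 CPM with AZC on flowcell 1, against 23.6, 21.7, 22.6 and 23.3 CPM with vehicle. On flowcell 2, MSY1 had 32.1, 34.7, 33.2 and 34.4 CPM with AZC, against 26.1, 30.6, 27.7 and 27.2 CPM with vehicle. MSY1 did not overlap either, at 0.41 ± 0.07 and 0.27 ± 0.06 (edgeR adjusted p = 5.54e-05 and 0.00143). The 6 mitochondrial genes without a call on either flowcell, DIA4, ISM1 (isoleucyl), MSE1 (glutamyl), MSM1, MSW1 (tryptophanyl) and NAM2 (leucyl), lay between -0.02 and 0.18 on flowcell 1 and between -0.01 and 0.13 on flowcell 2.

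The wild-type responses on the flowcells, which share no library, ranked the genes alike: across genes, Spearman's rho was 0.94 over the 19 cytosolic and 0.94 over the 14 mitochondrial genes. The difference of the responses was called for 0 of 33 genes by edgeR, where 1.31% of 5808 genes were called, 0.499% higher and 0.809% lower. However, 13 of the 33 had an unadjusted p under 0.05, beside 1125 of all 5808 genes. All 19 cytosolic differences were negative, meaning a deeper fall on flowcell 1. Of all 5808 genes 2896 were negative. DESeq2 called 5 cytosolic genes and limma-voom 0, beside 356 and 49 of all 5808 genes. Without wild type with AZC on flowcell 1, replicate 4, edgeR called 5 (ALA1, DED81, GLN4, SES1 and TYS1). The 16 fits that each left out a library called 5 to 517 of all genes, beside 76 in the reported fit. The largest differences were -0.49 ± 0.14 for DED81 (edgeR adjusted p = 0.0762) and 0.30 ± 0.13 for SLM5 (edgeR adjusted p = 0.228). YHR020W differed by -0.33 ± 0.11 (edgeR adjusted p = 0.128) and AIM10 by 0.05 ± 0.09 (edgeR adjusted p = 0.813).

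**Figure D4:**
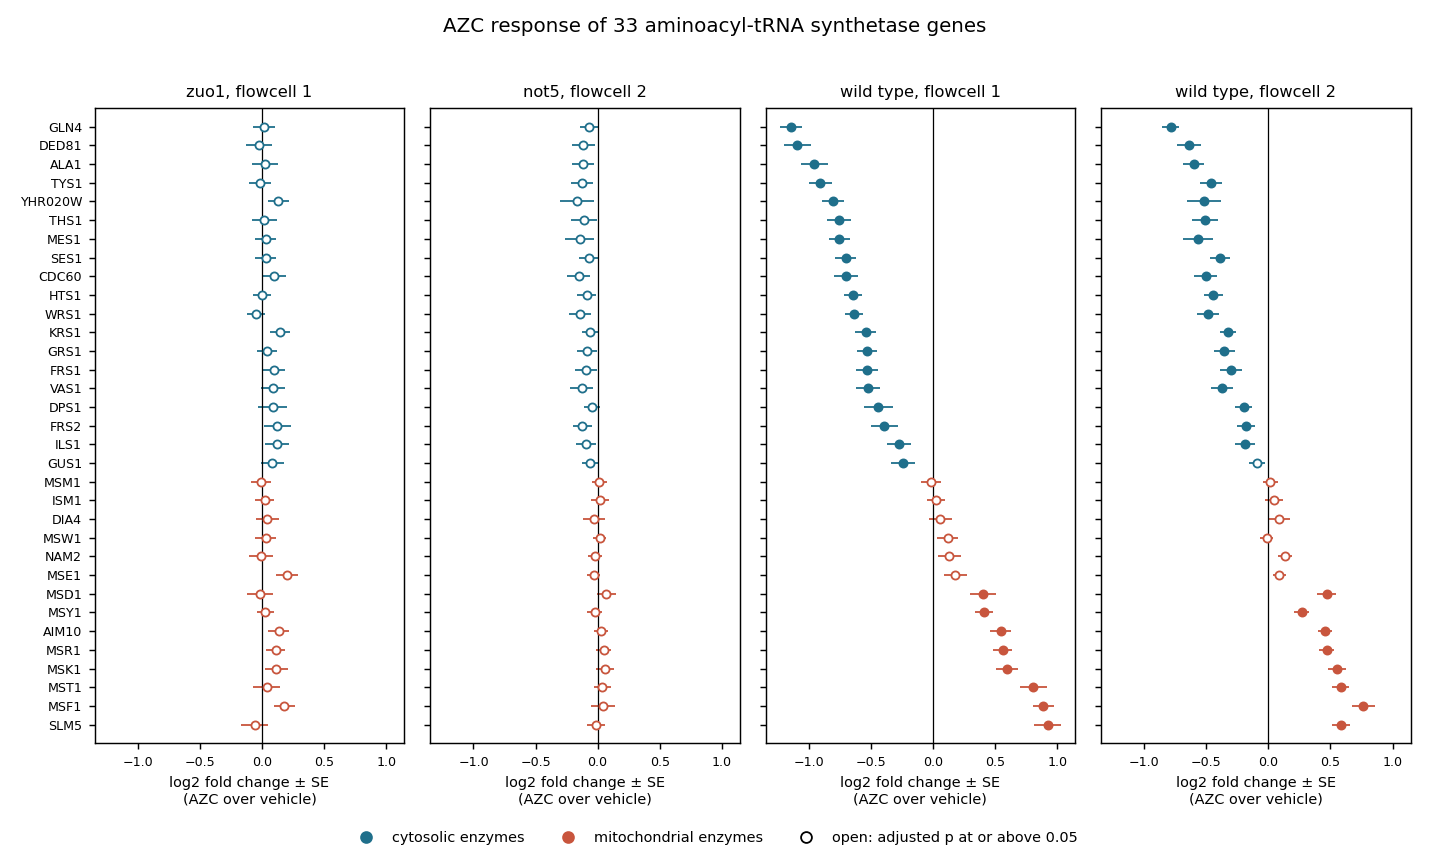
Log2 fold change (AZC over vehicle, with SE) of the 33 genes in zuo1, not5 and wild type on each flowcell, cytosolic genes in blue above mitochondrial genes in red, with open circles where the adjusted p was not under 0.05. Wild-type cytosolic points lie left of 0 down to -1.15 and mitochondrial points reach 0.92, while the zuo1 points lie between -0.06 and 0.20 and the not5 points between -0.16 and 0.07.

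Of the 4 genes that make both a cytosolic and a mitochondrial enzyme, all moved with the cytosolic set. ALA1 had 370.4, 450.2, 475 and 535 CPM in wild type with AZC on flowcell 1, against 875, 937, 887 and 849.9 CPM with vehicle. ALA1 on flowcell 2 had 582, 557, 527 and 515 CPM with AZC, against 879, 787, 839 and 810.1 CPM with vehicle. The AZC libraries were all lower, and by more than for the other genes of this kind. GRS1, the glycyl gene, had 855, 931, 902 and 975 CPM with AZC on flowcell 1, against 1269, 1435, 1299 and 1303 CPM with vehicle. GRS1 on flowcell 2 had 1091, 1010.1, 1050.2 and 1074 CPM with AZC, against 1357, 1239, 1436 and 1370.4 CPM with vehicle. Its groups did not overlap, with log2 fold changes of -0.53 ± 0.08 and -0.35 ± 0.08 (edgeR adjusted p = 1.38e-05 and 0.00128). HTS1, the histidyl gene, had 303, 337, 327 and 374 CPM with AZC on flowcell 1, against 494, 559, 522 and 519.5 CPM with vehicle. HTS1 on flowcell 2 had 384, 371, 373 and 394 CPM with AZC, against 524, 480.2, 552 and 516 CPM with vehicle. HTS1 was lower in every AZC library, at -0.64 ± 0.07 and -0.45 ± 0.08 (edgeR adjusted p = 3.83e-07 and 0.000106). VAS1 had 736, 831, 858 and 955 CPM with AZC on flowcell 1, against 1168, 1329.8, 1204 and 1157 CPM with vehicle. VAS1 on flowcell 2 had 989.7, 884, 939 and 890.3 CPM with AZC, against 1271, 1098, 1237 and 1183 CPM with vehicle. The VAS1 groups did not overlap, at -0.52 ± 0.10 and -0.37 ± 0.09 (edgeR adjusted p = 0.000115 and 0.00184). These mRNA levels do not separate the transcripts of the 2 forms.

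FRS1 and FRS2 encode the beta and alpha subunits of one cytosolic enzyme, and both fell with AZC in wild type, FRS1 by more. FRS1 had 499, 540.2, 602 and 647 CPM with AZC on flowcell 1, against 804, 812, 853 and 835 CPM with vehicle. FRS2 on flowcell 1 had 293, 333, 401 and 439.6 CPM with AZC, against 449, 465, 504 and 507 CPM with vehicle. The lowest vehicle library stood above the highest AZC library for each. On flowcell 2, FRS1 had 704, 639.7, 666 and 630.4 CPM with AZC, against 808, 743, 865 and 832 CPM with vehicle. FRS2 on flowcell 2 had 436, 401, 417 and 414 CPM with AZC, against 466, 441, 510.0 and 472 CPM with vehicle. Neither gene overlapped there either. FRS1 had log2 fold changes of -0.53 ± 0.09 and -0.30 ± 0.09 (edgeR adjusted p = 4.07e-05 and 0.0077), and FRS2 of -0.39 ± 0.11 and -0.18 ± 0.07 (edgeR adjusted p = 0.00408 and 0.0418). Per kilobase, FRS1 stood at 1.33 ± 0.0905 times FRS2 with AZC and 1.45 ± 0.0530 times with vehicle on flowcell 1, and at 1.34 ± 0.0348 and 1.45 ± 0.0305 times on flowcell 2 (SD, n = 4). In not5 the ratio was 1.58 ± 0.101 with AZC and 1.55 ± 0.0344 with vehicle, and in zuo1 it was 1.496 ± 0.0233 and 1.53 ± 0.0772.

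None of the 33 genes passed the test for AZC against vehicle in either mutant. In zuo1, 0 of 33 were called by edgeR (1 had an unadjusted p under 0.05, and DESeq2 and limma-voom also called 0), where 2.77% of all genes were called, 2.25% higher and 0.519% lower. In not5, 0 of 33 were called (0 had an unadjusted p under 0.05), and 0% of all genes were called in this fit, with 62 at an unadjusted p under 0.05. DESeq2 called 1 gene in not5 and limma-voom 0, neither one of the 33 genes. Libraries of equal number varied together in not5, and a block for the replicate number within genotype called 76 genes there, of which 0 were among the 33. With that block 10 of the 33 and 873 of all 5849 genes had an unadjusted p under 0.05. The median log2 fold change in zuo1 was 0.04 over cytosolic and 0.03 over mitochondrial genes, and in not5 it was -0.11 and 0.02. Small differences of one sign were present in not5: all 19 cytosolic log2 fold changes were negative, beside 2912 of all 5849 genes. Between libraries of equal number, 18 of the 19 cytosolic genes were lower with AZC in all 4 pairs. The share of all genes lower in every pair was not computed. The cytosolic sum was lower with AZC in 4 of 4 pairs, at 93.4% of the vehicle sum by mean, and the mitochondrial sum was lower in 0 of 4, at 101%.

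YHR020W had 442, 359, 445 and 408 CPM in zuo1 with AZC, against 367, 369.5, 402 and 373 CPM in zuo1 with vehicle. YHR020W in not5 had 172, 112, 154 and 126 CPM with AZC, against 193, 123, 171 and 144 CPM with vehicle. In both mutants the AZC and vehicle libraries overlapped, at log2 fold changes of 0.13 ± 0.09 in zuo1 (edgeR adjusted p = 0.612) and -0.16 ± 0.14 in not5 (edgeR adjusted p = 0.999), which was the largest in size of the cytosolic genes in not5. YHR020W was lower with AZC in 4 of 4 not5 pairs of equal number, with an edgeR adjusted p of 0.103 with the block within genotype. AIM10 had 32.5, 34.8, 30.1 and 31.1 CPM in zuo1 with AZC, against 27.3, 33.3, 30.9 and 25.5 CPM with vehicle. AIM10 in not5 had 34.4, 39.9, 35.9 and 37.6 CPM with AZC, against 34.8, 38.2, 35.9 and 36.1 CPM with vehicle. These overlapped too, at 0.13 ± 0.08 (edgeR adjusted p = 0.579) and 0.03 ± 0.06 (edgeR adjusted p = 0.999). The largest other values were 0.14 ± 0.08 for KRS1 and 0.20 ± 0.09 for MSE1 in zuo1 (edgeR adjusted p = 0.522 and 0.377), and 0.07 ± 0.07 for MSD1 in not5 (edgeR adjusted p = 0.999).

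Whether the mutants' responses differed from that of wild type was tested as an interaction in the fit of each flowcell. For zuo1, 18 of 19 cytosolic responses were higher than in wild type and 8 of 14 mitochondrial responses were lower, with none the other way, where 50.1% of all genes were called, 23.4% higher and 26.7% lower. For not5, 11 of 19 cytosolic responses were higher and the same 8 mitochondrial responses were lower, where 49.2% of all genes were called, 26.5% higher and 22.7% lower. The 8 mitochondrial genes are those that rose with AZC in wild type, and each interaction uses those wild-type libraries. Of them, the MSD1 call for zuo1 was lost in 9 of 16 fits that each left out a library. GLN4 showed the largest cytosolic difference, 1.16 ± 0.12 for zuo1 (edgeR adjusted p = 4.72e-07) and 0.72 ± 0.10 for not5 (edgeR adjusted p = 3e-05). DED81 followed at 1.07 ± 0.15 and 0.53 ± 0.13 (edgeR adjusted p = 1.17e-05 and 0.00406), and ALA1 at 0.98 ± 0.15 and 0.49 ± 0.12 (edgeR adjusted p = 2.69e-05 and 0.00395).

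Among mitochondrial genes the zuo1 response lay furthest below that of wild type for SLM5, at -0.98 ± 0.15 (edgeR adjusted p = 3.81e-05), then MST1 at -0.77 ± 0.15 and MSF1 at -0.71 ± 0.12 (edgeR adjusted p = 0.000402 and 0.000102). For not5 MSF1 came first at -0.72 ± 0.13 (edgeR adjusted p = 0.000363), then SLM5 at -0.60 ± 0.10 and MST1 at -0.55 ± 0.10 (edgeR adjusted p = 0.000165 and 0.000325). YHR020W differed by 0.93 ± 0.12 for zuo1 (edgeR adjusted p = 5.07e-06) and by 0.35 ± 0.19 for not5 without passing the threshold (edgeR adjusted p = 0.143). It passed without not5 with vehicle, replicate 1 (edgeR adjusted p = 0.0441), and without not5 with AZC, replicate 2 (edgeR adjusted p = 0.0484). AIM10 differed by -0.41 ± 0.12 for zuo1 (edgeR adjusted p = 0.00827, lost without zuo1 with vehicle, replicate 2, at 0.0521) and by -0.43 ± 0.08 for not5 (edgeR adjusted p = 0.000365). The not5 count of 19 genes fell to 12 without not5 with vehicle, replicate 2, and to 12 without not5 with AZC, replicate 1. It was 22, with 14 cytosolic genes, with the replicate number as a block shared by all groups, and 24, with 16 cytosolic genes, with the block within genotype. It was 12, with 4 cytosolic and 8 mitochondrial genes, without the 2 not5 libraries over 10% ribosomal RNA or without ribosomal RNA records. Of all genes, 2879 were called in the reported fit, 3270 with the shared block and 3801 with the block within genotype. Calls over all genes numbered 2828 without ribosomal RNA records and 2547 to 3070 when each library was left out.

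In vehicle, the zuo1 mutant had lower mRNA of each of the 19 cytosolic genes described here than wild type. There, 19 of 19 cytosolic genes fell and 0 rose, against 59.3% of all genes called, 30.1% higher and 29.1% lower. The 14 mitochondrial genes split into 2 higher, 6 lower and 6 without a call. Scaling to library totals, which moved the median of all genes by 0.24, turned the mitochondrial split to 6 higher and 1 lower, while the cytosolic count stayed at 19 lower. Relative to that shift 6 mitochondrial genes lay above and 8 below. DESeq2 size factors in edgeR gave 1 mitochondrial gene higher and 7 lower. The cytosolic sum was 10778 ± 752 CPM in zuo1 with vehicle and 18875 ± 937 CPM in wild type with vehicle, or 57.1% of wild type, and the mitochondrial sum was 408 ± 12.4 and 457 ± 25.5 CPM, or 89.4%.

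KRS1 had the largest cytosolic fall in zuo1. It had 663, 711, 741 and 666 CPM in zuo1 with vehicle, against 1466, 1609, 1477 and 1504 CPM in wild type with vehicle. All zuo1 libraries lay far below all wild-type ones, at -1.12 ± 0.08 (edgeR adjusted p = 9.64e-09). CDC60, the leucyl gene, was at -1.01 ± 0.10 (edgeR adjusted p = 3.29e-07) and YHR020W at -1.0 ± 0.09 (edgeR adjusted p = 7.74e-08). The smallest cytosolic fall was -0.54 ± 0.07, for WRS1 (edgeR adjusted p = 5.6e-06). MSK1 had the largest mitochondrial fall. It had 35.3, 33.8, 40.6 and 39.4 CPM in zuo1 with vehicle, against 47.7, 47.1, 53.98 and 60.7 CPM in wild type with vehicle, with no overlap, at -0.49 ± 0.09 (edgeR adjusted p = 0.000229). ISM1 was at -0.44 ± 0.08 and NAM2 at -0.40 ± 0.10 (edgeR adjusted p = 9.05e-05 and 0.00143). When scaled to library totals, only 1 mitochondrial gene was called lower. MSW1 at 0.26 ± 0.09 and MSY1 at 0.19 ± 0.07 were higher (edgeR adjusted p = 0.014 and 0.0269), but the MSW1 call was lost without zuo1 with vehicle, replicate 1 (edgeR adjusted p = 0.0897) and the MSY1 call in 7 of 16 fits that each left out a library. AIM10 was at 0.07 ± 0.08 (edgeR adjusted p = 0.47). Libraries of equal number varied together in this comparison, and with the replicate number as a block MST1, at -0.24 ± 0.11 (edgeR adjusted p = 0.062), was also called lower (edgeR adjusted p = 0.0206).

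In vehicle, the not5 mutant had lower mRNA of each of the 19 cytosolic genes described here, and higher mRNA of 11 mitochondrial enzymes, than wild type. All 19 cytosolic genes fell and 0 rose, against 82.1% of all genes called, 41.2% higher and 40.9% lower. Of the 14 mitochondrial genes 11 rose, 1 fell and 2 were without a call. Scaling to library totals moved the median of all genes by 0.53 and gave 18 lower cytosolic genes, without TYS1, and 14 higher mitochondrial genes. Relative to that shift 19 cytosolic genes lay below, and 11 mitochondrial genes above and 3 below. The cytosolic sum was 6486 ± 604 CPM in not5 with vehicle and 18572 ± 1057 CPM in wild type with vehicle, or 34.9% of wild type, and the mitochondrial sum was 652 ± 42.2 and 524 ± 19.3 CPM, or 124%.

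YHR020W had the largest fall of all 33 genes in not5. Its not5 vehicle libraries, at 193, 123, 171 and 144 CPM, all lay below its wild-type vehicle libraries, at 757, 667, 797 and 732 CPM. The log2 fold change was -2.23 ± 0.14 (edgeR adjusted p = 6.5e-10). THS1 was at -2.03 ± 0.11 (edgeR adjusted p = 7.29e-11) and CDC60 at -1.92 ± 0.09 (edgeR adjusted p = 2.93e-11), while the smallest cytosolic falls were ILS1 at -0.86 ± 0.08 and TYS1 at -0.71 ± 0.09 (edgeR adjusted p = 4.64e-08 and 1.22e-06). MSY1, the mitochondrial partner of TYS1, rose most. It had 49.00, 57.1, 56.2 and 50.4 CPM in not5 with vehicle, against 26.1, 30.6, 27.7 and 27.2 CPM in wild type with vehicle. Every not5 library was higher, at 0.93 ± 0.06 (edgeR adjusted p = 1.09e-09). DIA4 was at 0.90 ± 0.09 and MSE1 at 0.87 ± 0.06 (edgeR adjusted p = 1.18e-07 and 6.26e-10). AIM10 was at 0.16 ± 0.06 (edgeR adjusted p = 0.0131). ISM1 was lower at -0.17 ± 0.07 (edgeR adjusted p = 0.0409), but at 0.35 when scaled to library totals, and the call was lost in 7 of 16 fits that each left out a library. Without the 2 not5 libraries over 10% ribosomal RNA, 19 cytosolic genes were still lower, 11 mitochondrial genes were higher and 0 were lower.

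**Figure D5:**
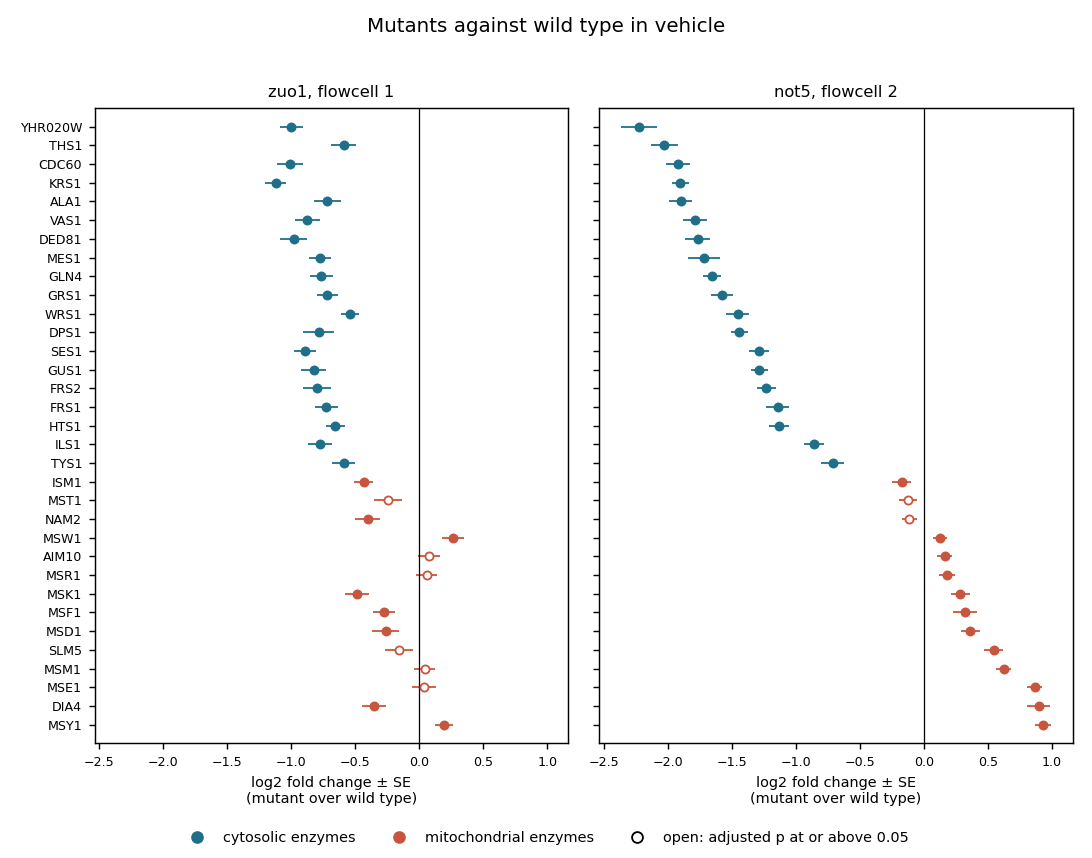
Log2 fold change (mutant over wild type in vehicle, with SE) of the 33 genes in zuo1 and not5, cytosolic genes in blue above mitochondrial genes in red, with open circles where the adjusted p was not under 0.05. Every cytosolic point lies left of 0 in both mutants, from -0.54 to -1.12 in zuo1 and from -0.71 to -2.23 in not5.

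The mutants, compared with separate wild-type libraries, called the same 19 cytosolic genes lower. Of all genes 29.1% were called lower in zuo1 and 40.9% in not5, and 30.1% and 41.2% higher. The share of all genes called in both mutants was not computed. Among mitochondrial genes 2 were higher in both (MSW1 and MSY1) and 1 was lower in both (ISM1). Another 4 were lower in zuo1 and higher in not5 (DIA4, MSD1, MSF1 and MSK1). However, with library totals only 1 mitochondrial gene was called lower in zuo1. DIA4, MSD1 and MSF1 then had no call in zuo1, and ISM1 was higher in not5. Across genes, Spearman's rho between the mutants was 0.36 over cytosolic and 0.23 over mitochondrial genes. GRS1 had 740.1, 861, 858 and 759 CPM in zuo1 with vehicle and 505, 397, 451 and 457 CPM in not5 with vehicle. HTS1 had 317, 343, 353 and 315 CPM in zuo1 with vehicle and 259, 209.9, 241 and 236 CPM in not5 with vehicle. The libraries of both mutants lay below all wild-type vehicle libraries of their flowcell for both genes. VAS1 had 607, 716, 696 and 629 CPM in zuo1 with vehicle and 389, 303, 355 and 339 CPM in not5 with vehicle. ALA1 had 492, 586, 579.5 and 498 CPM in zuo1 with vehicle and 249, 191, 233 and 214 CPM in not5 with vehicle. VAS1 and ALA1 were likewise below wild type without overlap. FRS1 had 450.0, 510.1, 532 and 504 CPM in zuo1 with vehicle and 412, 322, 372 and 368 CPM in not5 with vehicle. FRS2 had 249, 267, 315 and 276 CPM in zuo1 with vehicle and 221, 179, 207 and 198 CPM in not5 with vehicle. GLN4 had 437, 513, 478 and 447 CPM in zuo1 with vehicle and 271, 225, 241 and 245 CPM in not5 with vehicle. Again every mutant library was below every wild-type one. The share of all genes without such overlap was not computed.

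Some mitochondrial genes are given likewise. SLM5 had 16.3, 14.6, 14.5 and 16.8 CPM in zuo1 with vehicle and 28.6, 31.97, 33.4 and 29.97 CPM in not5 with vehicle. MSF1 had 17.4, 16.2, 18.6 and 17.7 CPM in zuo1 with vehicle and 25.4, 34.7, 32.2 and 28.97 CPM in not5 with vehicle. For both genes zuo1 overlapped wild type and not5 lay above it. MSK1 in not5 with vehicle had 67.7, 86.4, 73.7 and 73.5 CPM, all above wild type, whereas its zuo1 values lay below. MSY1 in zuo1 with vehicle had 24.6, 28.5, 26.1 and 24.8 CPM, all above wild type as in not5. KRS1 in not5 with vehicle had 410.5, 371, 405 and 395 CPM, all below wild type as in zuo1.

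With AZC in both strains, 8 of 19 cytosolic and 11 of 14 mitochondrial genes differed between zuo1 and wild type. In this comparison 3 of 19 cytosolic genes were higher and 5 lower, and 0 of 14 mitochondrial genes were higher and 11 lower, against 69.3% of all genes called, 34% higher and 35.4% lower. Scaling to library totals, which moved the median of all genes by 0.18, gave 7 cytosolic genes higher and 2 lower, and 3 mitochondrial genes higher and 8 lower. GUS1 was at -0.50 ± 0.10 (edgeR adjusted p = 0.000143) and KRS1 at -0.43 ± 0.08 (edgeR adjusted p = 0.000123). KRS1 had 796, 709, 803 and 767 CPM in zuo1 with AZC, against 925, 1043, 1064 and 1122 CPM in wild type with AZC. GLN4 had 485, 435, 494 and 477 CPM in zuo1 with AZC, against 314, 360.4, 349 and 418 CPM in wild type with AZC. KRS1 was thus lower and GLN4 higher without overlap. GLN4 was at 0.39 ± 0.09, TYS1 at 0.30 ± 0.09 and ALA1 at 0.26 ± 0.10 (edgeR adjusted p = 0.000691, 0.00724 and 0.0359), and the ALA1 call was lost in 4 of 16 fits that each left out a library. YHR020W was at -0.07 ± 0.09 (edgeR adjusted p = 0.506), at 0.12 when scaled to library totals, and its libraries overlapped.

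The remaining genes with values per library in zuo1 with AZC mostly overlapped wild type with AZC among cytosolic enzymes. ALA1 had 591, 478, 581 and 539.8 CPM in zuo1 with AZC. GRS1 had 841, 779.7, 873 and 812 CPM in zuo1 with AZC. HTS1 had 331, 316, 338 and 344 CPM in zuo1 with AZC. These are the genes that make both forms, together with VAS1. VAS1 had 749, 608, 732 and 726 CPM in zuo1 with AZC. FRS1 had 552, 475, 568 and 539.9 CPM in zuo1 with AZC. FRS2 had 313, 273, 321 and 299 CPM in zuo1 with AZC. Each of these 6 genes overlapped its wild-type values with AZC, although ALA1 was called higher and FRS2 and VAS1 lower. The FRS2 and VAS1 calls were lost in 5 and 3 of 16 fits that each left out a library. SLM5 had 15.8, 13.01, 16.1 and 14.7 CPM in zuo1 with AZC. MSF1 had 18.2, 20.5, 19.5 and 21.1 CPM in zuo1 with AZC. Both mitochondrial genes lay below every wild-type library with AZC. MSK1 had 39.3, 36.1, 42.6 and 43.1 CPM in zuo1 with AZC. MSY1 had 27.4, 25.2, 26.5 and 26.7 CPM in zuo1 with AZC. MSK1 and MSY1 did so too. The MSY1 call, at a log2 fold change of -0.20, was lost in 5 of 16 fits that each left out a library. SLM5 was at -1.15 ± 0.11 (edgeR adjusted p = 3.96e-08), MST1 at -1.02 ± 0.11 (edgeR adjusted p = 1.8e-07), MSF1 at -0.99 ± 0.09 (edgeR adjusted p = 1.27e-08) and AIM10 at -0.34 ± 0.08 (edgeR adjusted p = 0.00173).

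Under AZC, not5 remained below wild type in all 19 cytosolic enzymes, but in 18 when scaled to library totals. In this comparison 19 of 19 cytosolic genes were lower, and 5 mitochondrial genes were higher and 7 lower, against 79.3% of all genes called, 40.7% higher and 38.7% lower. Scaling to library totals, which moved the median of all genes by 0.53, gave 18 lower cytosolic genes, while TYS1 was opposite in sign without a call. Relative to that shift 19 cytosolic genes lay below. The same scaling gave 12 higher and 0 lower mitochondrial genes, so no direction is given for the mitochondrial set. YHR020W, at 112 to 172 CPM in not5 with AZC against 494 to 564 CPM in wild type with AZC, was again lowest relative to wild type, at -1.87 ± 0.14 (edgeR adjusted p = 4.66e-09). KRS1 was at -1.64 ± 0.07 and THS1 at -1.62 ± 0.11 (edgeR adjusted p = 4.48e-12 and 8.06e-10). DIA4 at 0.78 ± 0.09, MSE1 at 0.74 ± 0.06, MSY1 at 0.64 ± 0.06, MSM1 at 0.63 ± 0.06 and MSW1 at 0.16 ± 0.05 were higher (edgeR adjusted p = 6.23e-07, 3.83e-09, 9.62e-08, 7.79e-08 and 0.0125). MST1 was lower at -0.67 ± 0.07 (edgeR adjusted p = 2.2e-07). AIM10 was at -0.26 ± 0.06 (edgeR adjusted p = 0.000385), but at 0.27 when scaled to library totals.

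Values per library in not5 with AZC overlapped those in not5 with vehicle for the genes given here. Between libraries of equal number, each of the 8 cytosolic genes given was lower with AZC in 4 of 4 pairs. SLM5 was lower in 3 pairs, MSY1 in 2, and MSK1 and MSF1 in 0. The genes share these 4 pairs, and the labels do not say that equal numbers mark a shared culture. The share of all genes lower in every pair was not computed, and 0 of the 33 genes were called for AZC in not5. ALA1 had 235, 182, 203 and 198 CPM in not5 with AZC. GRS1 had 481, 386, 433 and 406 CPM in not5 with AZC. HTS1 had 252, 203, 231 and 206 CPM in not5 with AZC. All overlapped their vehicle values in not5. VAS1 had 365, 277, 323 and 303 CPM in not5 with AZC. FRS1 had 396, 309, 362 and 316 CPM in not5 with AZC. FRS2 had 208, 170.3, 179 and 182 CPM in not5 with AZC. The same held for these. GLN4 had 258, 219, 233 and 226 CPM in not5 with AZC. KRS1 had 397, 362, 385 and 369.6 CPM in not5 with AZC. All 8 genes lay below every wild-type library with AZC, in a comparison where edgeR called 38.7% of all genes lower. The share of all genes whose not5 libraries all lay below wild type was not computed. SLM5 had 28.1, 34.2, 30.5 and 29.9 CPM in not5 with AZC. MSK1 had 72.4, 86.8, 79.01 and 76.3 CPM in not5 with AZC. These 2 mitochondrial genes overlapped wild type with AZC. MSF1 had 26.5, 35.2, 32.4 and 30.9 CPM in not5 with AZC. MSY1 had 50.1, 54.4, 53.9 and 50.9 CPM in not5 with AZC. MSF1 lay below and MSY1 above every wild-type library with AZC in these CPM. When scaled to library totals, MSF1 was opposite in sign and 0 mitochondrial genes were called lower.

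Paired by amino acid, the ratio of cytosolic to mitochondrial mRNA was lower in AZC-treated wild type and in both mutants than in wild type with vehicle. In 13 pairs (with FRS1 for phenylalanine), the cytosolic level per kilobase over the mitochondrial one had a median of 12.8 in wild type with AZC and 30.9 with vehicle on flowcell 1, and of 13.1 and 26.3 on flowcell 2. The ratio was lower with AZC for 13 of 13 pairs on both flowcells. In zuo1 with vehicle the median was 18.7, and in not5 with vehicle 6.81, and the ratio was again below wild type for 13 of 13 pairs. AZC against vehicle within not5 also gave a lower ratio for 13 of 13 pairs, with medians of 6.67 and 6.81. Within zuo1 it gave 6 higher and 7 lower, and zuo1 with AZC against wild type with AZC gave 10 higher and 3 lower. The seryl pair (SES1 over DIA4) had the highest ratio in wild type with vehicle on flowcell 1, at 70.3, and the leucyl pair (CDC60 over NAM2) the lowest, at 14.6. In not5 with vehicle the prolyl ratio was 3.67 ± 0.834 and in not5 with AZC 3.23 ± 0.826 (SD, n = 4), against 19.1 ± 1.58 in wild type with vehicle. These ratios restate the levels above and carry no test of their own.

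Of 8 other charging genes in wild type with AZC, 2 rose and 4 fell on flowcell 1, and 3 rose and 4 fell on flowcell 2. These are 75% and 87.5% of the 8 genes, beside 64.6% and 65.3% of all genes. YNL247W (cysteinyl) and YDR341C (arginyl) had log2 fold changes of -0.89 and -0.71 on flowcell 1 and -0.58 and -0.50 on flowcell 2, within the range of the 19 cytosolic genes. GRS2, a paralogue of GRS1, with which it may share reads, rose by 0.91 and 0.74 on the log2 scale, the opposite of GRS1. PET112, a subunit of the mitochondrial amidotransferase that makes glutaminyl-tRNA, rose by 0.76 and 0.52 on the log2 scale. In vehicle 1 rose and 5 fell in zuo1, and 5 rose and 3 fell in not5, where PET112 was at 1.92, GTF1 at 1.23 and HER2 at 0.85, the 3 subunits of that amidotransferase. Of all genes 59.3% were called in zuo1 and 82.1% in not5. ARC1, the cytosolic cofactor of the methionyl and glutamyl enzymes, was at -0.71 in zuo1 and -1.04 in not5. In AZC-treated zuo1 and not5, 0 of the 8 were called.

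Of the 4 sensing genes, GCN4, whose translation rises when the kinase Gcn2 binds uncharged tRNA, had lower mRNA with AZC in wild type, at -0.83 ± 0.08 and -0.60 ± 0.06 (edgeR adjusted p = 6.96e-08 and 2.69e-07). GCN2 was at 0.15 and 0.06 without a call. GCN1 and GCN20, partners of Gcn2 on the ribosome, were at -0.17 and -0.27 on flowcell 1, where only GCN20 passed, and at -0.10 and -0.09 on flowcell 2, where neither passed. In vehicle 3 of 4 fell in zuo1 and 3 of 4 in not5, with GCN1 at -1.02 and GCN20 at -0.98 in not5. Of all genes 29.1% were called lower in zuo1 and 40.9% in not5, and 59.3% and 82.1% in either direction. These measurements are of mRNA and do not report Gcn4 protein.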

How the data were processed

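Per the submitters' processing notes, which name Salmon 1.10.2, FastQC 0.12.1 and the R64 build, the authors quantified mRNA reads as estimated counts per gene for 32 libraries, deposited in a single table; other settings are not given in the sources used here. Of its 6085 records 6084 matched RefSeq R64, and the 1 unmatched record, at most 0.0179% of a library, was left out. Rounding to integers altered 79.1% of the values. Tests used edgeR 4.0.16 in R 4.3.3 (quasi-likelihood, robust, TMM, filterByExpr by group) on the 16 libraries of a flowcell, or on the 16 wild-type libraries for the comparison of flowcells, with group as the term and Benjamini-Hochberg adjustment at 0.05 over all tested genes. The fit was tested on simulated counts. SE is the log2 fold change divided by the square root of F. CPM uses TMM factors, and per-kilobase levels use coding length. Overlap of libraries between groups was examined for the described genes only, so no share of all genes without overlap is given. Alternatives included DESeq2 1.42.0 and limma 3.58.1 (voom).

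Members and lists were chosen with earlier results of these data known. Genes are named by a rule: the prolyl pair, the 3 largest called changes of each compartment (the largest where none was called) and calls against the majority; values per library are given for 14 genes. Equal replicate numbers varied together (every pair's r over 0.1) for AZC in not5 (0.16 to 0.81) and zuo1 against wild type in vehicle (0.15 to 0.31). The labels do not say that a number marks a shared culture.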

Additional observations from a re-analysis of the deposited data

Results flagged for a closer look

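In 3 of the 128 group values examined 1 library stood apart from the other 3, where chance alone gives about 1 in 20. YHR020W had 564 CPM in wild type with AZC on flowcell 2, replicate 1, above the other 3. VAS1 had 608 CPM in zuo1 with AZC, replicate 2, below the other 3. GLN4 had 733 CPM in wild type with vehicle on flowcell 2, replicate 2, below the other 3.

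The AZC response of zuo1 differed from that of wild type, by the interaction test, for GLN4 (1.16 on the log2 scale), DED81 (1.07), ALA1 (0.98) and YHR020W (0.93) among cytosolic genes. Among mitochondrial genes it differed for SLM5 (-0.98), MST1 (-0.77), MSF1 (-0.71) and AIM10 (-0.41). The AZC response of not5 differed for GLN4 (0.72), DED81 (0.53), ALA1 (0.49), MSF1 (-0.72), SLM5 (-0.60), MST1 (-0.55) and AIM10 (-0.43). All are the mutant's response minus that of wild type, and both mutants' own responses were uncalled.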

How the results depend on the processing

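The count of genes called stayed within 1.5 times the reported one for the 8 pairwise comparisons and the zuo1 interaction under every alternative run. The not5 interaction, 19 genes, gave 12 with library totals, 12 without ribosomal RNA records, 12 without the 2 not5 libraries over 10% ribosomal RNA (an alternative chosen after seeing the data), and 12 to 22 when each library was left out. There, 7 of the 11 cytosolic calls (CDC60, KRS1, MES1, SES1, THS1, TYS1 and WRS1) were lost in 3 to 12 of the 16 fits. Over all tested genes the not5 interaction called 2879 genes as reported, 2345 with library totals and 2828 without ribosomal RNA records. It called 2547 to 3070 of all genes when each library was left out, 3270 with the shared block and 3801 with the block within genotype. The wild-type difference between flowcells, 0 genes, gave 6 with the replicate block within genotype, 5 with DESeq2 and 0 to 5 when each library was left out (5 without wild type with AZC on flowcell 1, replicate 4, and 3 without wild type with AZC on flowcell 2, replicate 3). Over all tested genes these alternatives called 498, 356 and 5 to 517 genes. With the replicate number as a block the not5 interaction gave 22 genes for a shared number and 24 within genotype; YHR020W (edgeR adjusted p = 0.0209 and 0.00033), GRS1 and VAS1 gained a call in both, and DPS1 and FRS1 within genotype. The block moved no other count of called genes among the 33 by more than 1.5 times. With library totals ISM1 was at 0.35 in not5 against wild type in vehicle, YHR020W at 0.12 in zuo1 against wild type under AZC, and in not5 against wild type under AZC AIM10 was at 0.27, TYS1 at 0.16, MSF1 at 0.13, MSK1 at 0.33, MSR1 at 0.29, NAM2 at 0.26 and ISM1 at 0.33, all opposite in sign. Leaving out 1 library turned the sign of 3 values that were not called: AIM10 for AZC in not5 (range -0.0127 to 0.0598, negative without not5 with AZC, replicate 2), AIM10 in zuo1 against wild type in vehicle (-0.0256 to 0.132, negative without zuo1 with vehicle, replicate 2) and YHR020W in zuo1 against wild type under AZC (-0.133 to 0.0222, positive without zuo1 with AZC, replicate 2). The cause was not tested.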
